A study of Mus musculus with 18 samples.

Results

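The miR-17-92 and miR-106b-25 clusters are paralogous groups of microRNA genes, each transcribed as 1 precursor from which several mature miRNAs are cut. Transcription of miR-17-92 is driven by MYC and E2F factors, miR-106b-25 lies inside Mcm7, a gene for a subunit of the replicative helicase, and both clusters are best known for restraining cell cycle inhibitors and pro-apoptotic genes in dividing cells. In the adult liver, most hepatocytes are not in cycle. All 9 mature miRNAs that carry the names of these clusters on the array were taken, namely mmu-miR-17, mmu-miR-18a, mmu-miR-19a, mmu-miR-19b, mmu-miR-20a and mmu-miR-92a of miR-17-92 and mmu-miR-106b, mmu-miR-93 and mmu-miR-25 of miR-106b-25 (written below without the prefix for mouse). They are 9 of 576 miRNA names on the array, with 18 of its 1712 probes.

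The samples were livers of male Muta™Mouse (transgenic mouse strain 40.6, a strain that carries a bacterial lacZ reporter in every cell for scoring mutations), aged 25 weeks per the labels. Every animal was gavaged for 28 days and killed 3 days after the last dose. Controls (n = 3) received olive oil alone, and the dosed groups (n = 5 each) were given 25, 50 or 75 mg/kg/day of benzo(a)pyrene (BaP) in olive oil, a combustion product whose liver metabolites bind DNA. The paper names 5 animals in every group, controls included, and reports that arrays were removed in a quality check. It does not say from which group, and arrays of 3 controls were available here. Each animal gave 1 array of a 1-color Agilent platform, and the numbers below only name arrays within a group.

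Of 69 miRNAs that passed the presence filter, 5 belonged to these clusters, and the arrays held between 5.72% and 16.5% of spots well above background. They came from 3 slides. The first 2 arrays of every dosed group and control 1 shared slide 1. Arrays 3 and 4 of the 50 and 75 mg/kg/day groups made up slide 2, which had no control. All remaining arrays, with controls 2 and 3, were on slide 3. Each slide was scanned on a day of its own, so slide and scan day cannot be told apart. Every comparison had slide as a term. As a check of the tissue, all 3 hepatocyte miRNAs listed (miR-122, miR-192 and miR-194) were present on all 18 arrays. Of the 6 blood and immune miRNAs listed, the erythroid miR-451 was present on 18 arrays and miR-144 and miR-223 on 15 each. miR-142-3p was present on 7, and miR-142-5p and miR-150 on 0.

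The mature sequences show which of the 9 miRNAs could share targets, because pairing of bases 2 to 8 (the seed, in capitals) does most of the target choice. They were read from RefSeq on GRCm38.p6, which matched all 9 names. The miR-17 seed was common to both clusters and to 4 of the 9 miRNAs:
miR-17: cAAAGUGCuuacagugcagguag
miR-20a: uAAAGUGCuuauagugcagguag
miR-106b: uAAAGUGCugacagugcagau
miR-93: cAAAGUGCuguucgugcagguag
The miR-92 seed was the other one found in both clusters:
miR-92a: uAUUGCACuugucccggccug
miR-25: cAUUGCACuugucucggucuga
The miR-19 and miR-18 seeds occurred in miR-17-92 alone:
miR-19a: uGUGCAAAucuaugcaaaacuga
miR-19b: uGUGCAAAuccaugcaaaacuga
miR-18a: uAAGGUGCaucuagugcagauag
miR-19a and miR-19b differed by 1 base, miR-17 and miR-20a by 2, and miR-92a and miR-25 by 4 edits (substitutions, insertions or deletions). No file read here gives the probe sequences or how far a probe distinguishes such neighbors.

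The 6 hairpins of miR-17-92 lay within chr14:115043671-115044506 on the plus strand, a span of 836 bp, and the 3 of miR-106b-25 within chr5:138165321-138165818 on the minus strand, a span of 498 bp. All 3 of the latter fell inside the annotated span of Mcm7, chr5:138164583-138172111. The mature miR-19b and miR-92a are each encoded at 2 loci with identical sequence, 1 on chromosome 14 and 1 on the X chromosome in the paralogous miR-106a-363 cluster, so their signals cannot be assigned to miR-17-92 alone.

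Detection differed among the members. A probe was counted as present on an array where at least a share of 0.5 of its spots were well above background. miR-19b, miR-20a and miR-92a were present on 18 of 18 arrays, miR-106b on 17 and miR-25 on 12. miR-17, which gives the larger cluster its name, and miR-18a were present on 0 of 18, with 1 and 3 of their 360 spots above background over all arrays. Both are therefore reported as not well above background, which sets no level for them.

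miR-19a was present on 5 arrays (1 control and 2, 1 and 1 arrays at 25, 50 and 75 mg/kg/day) and miR-93 on 2 (1 control and 1 array at 25 mg/kg/day), all on slide 1. This placing depended on the rule. By Agilent's call per name miR-19a was detected on 10 arrays (6, 1 and 3 on slides 1, 2 and 3) and miR-93 on 5, all on slide 1, and with at least 1 spot above background they were on 11 (6, 2 and 3) and 8 (5, 1 and 2). Slide 1 also carried both the most and the fewest members present on an array, from 3 to 7, against 4 to 5 on slides 2 and 3. Neither miRNA passed the filter, which asked for presence on at least a share of 0.8 of the arrays of a group, and where a probe was present in 1 of the groups compared and not in the other, the bound on the fold was under 1, so no fold is given. Whether an array lay on slide 1 moved with detection, and its part in the result was not tested further.

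**Figure D1:**
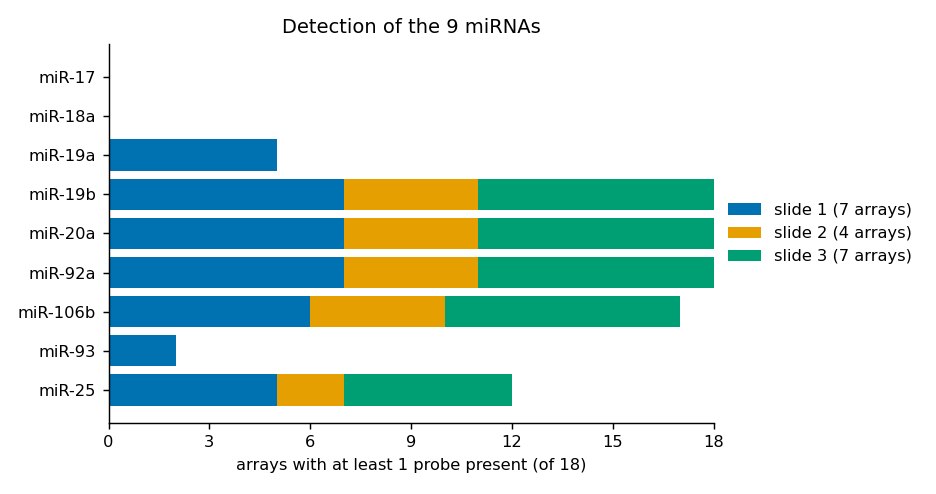
Bars give the number of arrays, of 18, on which at least 1 of the 2 probes of a miRNA was present, colored by slide. miR-17 and miR-18a have no bar, miR-19a (5 arrays) and miR-93 (2 arrays) appear by this rule (a share of at least 0.5 of a probe's spots) on slide 1 alone, and miR-19b, miR-20a and miR-92a reach 18.

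The question put to the detected members was whether BaP changed their level in liver at any dose. Levels are normalized log2 median signals without background subtraction. The median probe of an array, at 5.76 to 5.78, was near background, so a fold on this scale understates a change in the RNA of a dim miRNA. In whole liver, fewer cells holding a miRNA and less of it per cell cannot be told apart.

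miR-19b, an oncogenic member of miR-17-92, was measured at 7.72, 7.71 and 7.68 in the controls. The arrays at 25 mg/kg/day gave 7.75, 7.69, 7.71, 7.61 and 7.78, and those at 50 gave 7.58, 7.64, 7.78, 7.71 and 7.94. At 75 mg/kg/day the signals were 7.62, 7.72, 7.87, 7.85 and 7.88. The lower values at 50 and 75 mg/kg/day were those of slide 1, the highest ones those of slides 2 and 3, and every dosed group overlapped the controls. The means were 7.70 ± 0.023 (SD, n = 3), 7.71 ± 0.067, 7.73 ± 0.14 and 7.79 ± 0.12 (SD, n = 5 each) in order of dose.

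miR-20a, the member of miR-17-92 closest in sequence to miR-17 and a repressor of E2f1, gave 6.90, 6.90 and 6.93 in the controls. At 25 mg/kg/day it gave 6.78, 6.69, 6.99, 6.91 and 7.02, and at 50 mg/kg/day 6.74, 6.76, 7.02, 6.86 and 7.08. At 75 mg/kg/day it gave 6.72, 6.71, 6.96, 7.06 and 6.97. In each dosed group the slide 1 arrays lay below the control of that slide and the single slide 3 array, at 50 and at 75, above both of its controls, so the dosed arrays spread to either side of the controls at every dose. Slide 1 held only 1 control, and the share of all miRNAs tested with such a placing was not counted.

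miR-92a, the last hairpin of miR-17-92 and a miRNA of the vascular endothelium as well as of dividing cells, gave 7.07, 7.17 and 7.17 in the controls. It gave 6.97, 7.00, 7.18, 7.14 and 7.18 at 25, and 6.99, 6.95, 7.18, 7.13 and 7.31 at 50 mg/kg/day. At 75 mg/kg/day it gave 6.91, 6.85, 7.26, 7.25 and 7.14. The 2 lowest values of each dosed group were its slide 1 arrays, and all groups overlapped. The 3 arrays at 75 mg/kg/day that shared a slide with a control were below every control of that slide, a placing that 21 of the 69 miRNAs tested (30.4%) had at this dose.

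miR-106b, which shares the miR-17 seed and represses Cdkn1a, gave 6.19, 6.61 and 6.50 in the controls. At 25 mg/kg/day the signals were 6.39, 6.26, 6.62, 6.48 and 6.44, at 50 mg/kg/day 6.26, 6.26, 6.69, 6.65 and 6.69, and at 75 mg/kg/day 6.31, 6.27, 6.63, 6.53 and 6.74. The control of slide 1 was the lowest of all 18 arrays, and the ranges of all groups overlapped. Within slides, miR-106b was above every control in 3 of 3 arrays at 50 and in 3 of 3 at 75 mg/kg/day, and in 3 of 5 at 25 mg/kg/day, where the other two were below. Of the 69 miRNAs, 8 (11.6%) at 50 and 12 (17.4%) at 75 mg/kg/day had every such array above the controls.

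miR-25, the last hairpin of miR-106b-25 and bearer of the miR-92 seed, was the least often detected of the 5, on 12 arrays. These were all 3 controls and 3, 4 and 2 of the 5 arrays at 25, 50 and 75 mg/kg/day. Its controls gave 6.26, 6.29 and 6.24. The dosed groups gave 6.31, 6.16, 6.28, 6.21 and 6.25 at 25 mg/kg/day, 6.15, 6.16, 6.25, 6.21 and 6.21 at 50, and 6.16, 6.25, 6.19, 6.22 and 6.29 at 75 mg/kg/day. All arrays of all groups lay between 6.15 and 6.31, and each dosed group overlapped the controls.

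**Figure D2:**
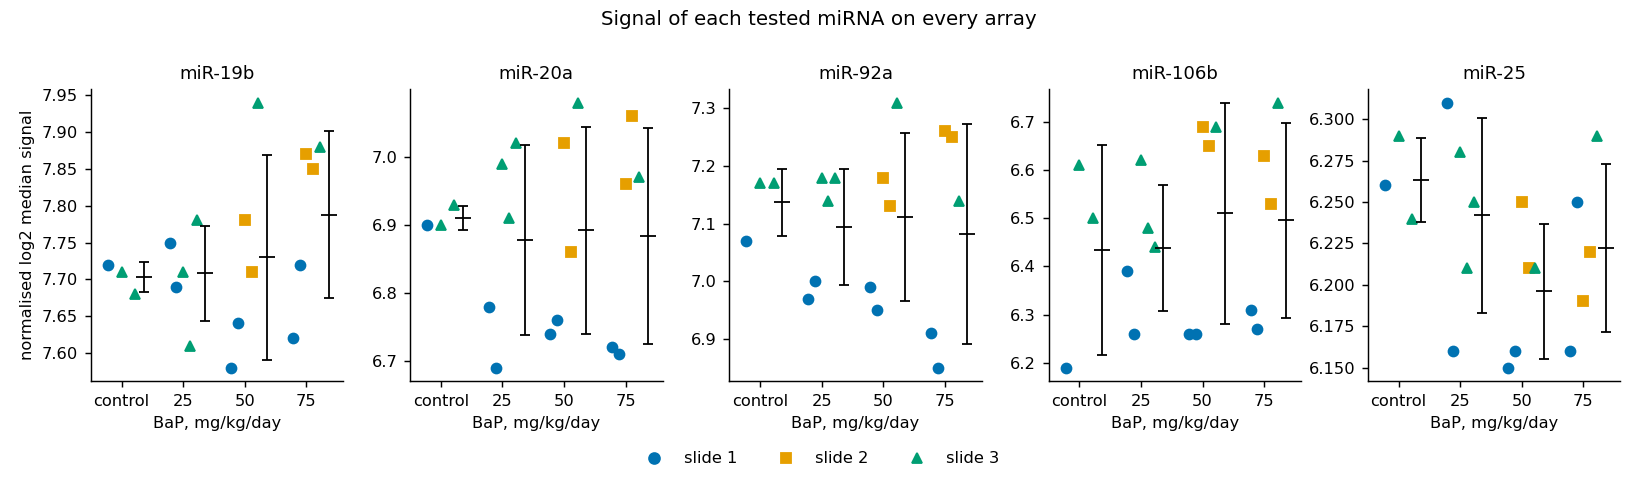
Each point is the normalized log2 median signal of 1 array, by BaP dose and with the slide as color and shape, and bars are the group mean ± SD (n = 3 controls, 5 per dose). The vertical scales differ between panels and do not start at 0. Slide 1 arrays of miR-20a, miR-92a and miR-106b sit lowest at each dose. With the slides pooled, every dosed group overlaps the controls, and these ranges include the differences between slides.

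None of the 5 members passed the threshold (limma, adjusted P under 0.05 over 69 miRNAs) in any comparison. The count was 0 of 5 at 25 mg/kg/day (0% of all 69 miRNAs passed), 0 of 5 at 50 (2.9% of all), 0 of 5 at 75 (5.8% of all), 0 of 5 for 75 versus 25 mg/kg/day (2.9% of all) and 0 of 5 for the linear trend over dose (10.1% of all). At an unadjusted P under 0.05 the count was also 0 of 5 in each. With the share of all miRNAs called between 0% and 10.1%, no call among 5 is close to the background. The 7 miRNAs with a trend and the 4 called at 75 mg/kg/day included miR-34a, at a log2 change of 2.07 ± 0.18 (SE) at 75 mg/kg/day, so the arrays registered a change of that size.

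The changes of the members were small against that one. At 75 mg/kg/day the log2 change from control was 0.09 ± 0.07 (SE) for miR-19b, -0.01 ± 0.06 for miR-20a and -0.06 ± 0.06 for miR-92a, with adjusted P of 0.460, 0.967 and 0.4998 (limma). For miR-106b-25 it was 0.09 ± 0.07 for miR-106b and -0.03 ± 0.04 for miR-25, with adjusted P of 0.420 and 0.723. The median of the 5 was -0.01, beside -0.03 over all 69. At 50 mg/kg/day the largest member change was that of miR-106b, 0.10 ± 0.07 (SE, adjusted P = 0.407 by limma), and the median was 0.00 beside -0.02. At 25 mg/kg/day all 5 lay between -0.03 and 0.03, with a median of -0.02 as over all miRNAs.

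The intervals say how large a change would still be allowed on the signal without background subtraction. They were wider on the total gene signal reported below. Over the 5 members, the 95% confidence limit farthest from 0 corresponded to a 1.11-fold change at 25, 1.19-fold at 50 and 1.18-fold at 75 mg/kg/day, and 1.16-fold for 75 versus 25 mg/kg/day, on the signal scale without background subtraction. The limit farthest from 0 was that of miR-106b at 50 mg/kg/day, whose interval ran from -0.04 to 0.25 on the log2 scale, and that of miR-20a at 75 mg/kg/day ran from -0.14 to 0.12. The slope per 25 mg/kg/day was 0.03 ± 0.02 (SE) for both miR-19b and miR-106b, with adjusted P of 0.373 and 0.352 by limma, and between -0.02 and 0.00 for miR-20a, miR-92a and miR-25. With the number of detected spots per array added as a covariate, miR-106b passed in the trend, at a slope of 0.05 (adjusted P = 0.0378 by limma, where 11.6% of all miRNAs passed).

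**Figure D3:**
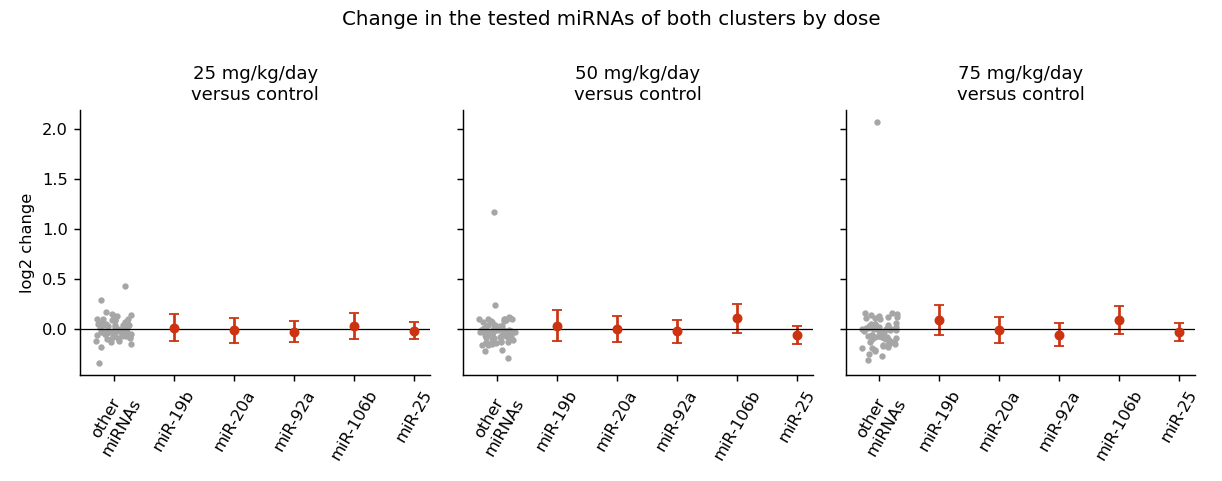
Red points are the log2 change from control of each tested member with its 95% confidence interval, and gray points are the other 64 miRNAs tested, without intervals. All 15 member intervals cross 0 and lie within -0.18 and 0.25, while the gray point at 1.17 (50 mg/kg/day) and 2.07 (75 mg/kg/day) is miR-34a.

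The calls for miR-19b and miR-92a depended on the signal that was read. Agilent's total gene signal sums background-subtracted signal over the probes of a name, and here it was scaled to the 75th percentile of each array. On that scale miR-19b gave 6.87, 6.47 and 6.51 (log2) in the controls and 7.18, 7.19, 7.06, 7.19 and 6.94 at 75 mg/kg/day. These groups did not overlap. The share of all miRNAs tested that likewise had no overlap on this scale was not counted, so the separation has no background to be read against. The arrays at 25 mg/kg/day gave 7.14, 6.91, 6.48, 6.43 and 6.70, and those at 50 gave 6.95, 7.06, 6.97, 6.86 and 6.97. The ranges of the controls and of these lower doses overlapped one another.

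On the total gene signal, miR-19b was higher at 75 mg/kg/day by 0.40 ± 0.10 (SE, log2), a 1.32-fold change (95% interval 1.13 to 1.54, adjusted P = 0.0180 by limma). It was 1 of 5 members past the threshold there, beside 13% of all 69, and the median of all 69 itself moved to 0.18 on this scale, so the excess over it was smaller than the change. The difference from the controls of the same slide was 0.31 on slide 1 (2 arrays against 1) and 0.45 on slide 3 (1 against 2). The call was lost without control 1, without control 2, without control 3 or without array 5 at 75 mg/kg/day, with an adjusted P of up to 0.0735, and held in the other 14 of 18 fits that left out 1 array. The slope of miR-19b was 0.14 ± 0.03 (SE, log2 per 25 mg/kg/day, adjusted P = 0.00517 by limma) and passed in all 18 such fits, between 0.12 and 0.15.

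The slope of miR-92a on the total gene signal was 0.08 ± 0.03 (SE, adjusted P = 0.0386 by limma), of opposite sign to its slope of -0.02 on the median signal, which made 2 of 5 members past the threshold for the trend, beside 18.8% of all 69. The median change of all 69 was itself raised on this scale at 75 mg/kg/day, as given above. Their median slope is not given here. How much of the slopes of miR-19b and miR-92a all miRNAs shared can therefore not be read. It passed in 11 of 18 fits that left out 1 array, with an adjusted P of up to 0.0832 (without array 1 at 75 mg/kg/day). Its controls gave 6.78, 7.03 and 7.06 on this scale and the arrays at 75 mg/kg/day 6.93, 6.79, 7.53, 7.65 and 7.26, so these groups overlapped, and the highest 2 were those of slide 2, which held no control. For miR-20a, at 0.36 ± 0.17 (SE), and miR-106b, at 0.45 ± 0.27, the change at 75 mg/kg/day did not pass (adjusted P of 0.196 and 0.313 by limma). miR-25 fell to the floor of this scale on some arrays and its change had an SE of 1.05, too wide to be read. On Agilent's processed signal, which is also background-subtracted, no member passed, and miR-19b was at 0.28 with an adjusted P of 0.271 (limma) at 75 mg/kg/day.

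**Figure D4:**
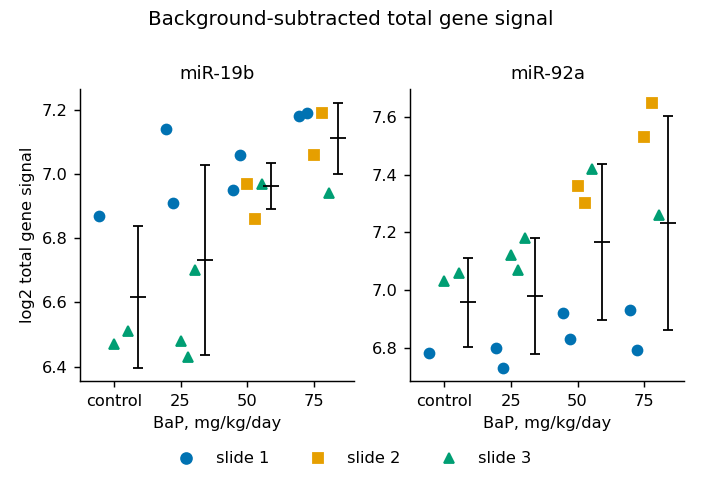
Each point is the log2 total gene signal (background-subtracted, scaled to the 75th percentile of the array) of 1 array for miR-19b and miR-92a, by dose and slide, with the group mean ± SD (n = 3 controls, 5 per dose). Vertical scales do not start at 0. All 5 arrays of miR-19b at 75 mg/kg/day (6.94 to 7.19) lie above the controls (6.47 to 6.87), and miR-92a overlaps at every dose. The share of all miRNAs tested with no such overlap was not counted.

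Signals differed between slides for miR-106b, miR-20a and miR-92a, 3 of the 5 members, beside 63.8% of all 69 miRNAs. Relative to slide 1, with dose in the model, miR-106b was higher by 0.32 ± 0.06 (SE) on slide 2 and 0.33 ± 0.05 on slide 3 (adjusted P = 1.07e-05 by limma), miR-20a by 0.22 ± 0.05 and 0.22 ± 0.04 (adjusted P = 0.000378), and miR-92a by 0.25 ± 0.05 and 0.21 ± 0.04 (adjusted P = 6.44e-05). For miR-19b (0.11 and 0.10, adjusted P = 0.126) and miR-25 (0.03 and 0.03, adjusted P = 0.579) the difference did not pass.

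The 2 probes of a miRNA did not share this shift. The brighter miR-92a probe, A_54_P2496, was higher by 0.65 on slide 2 and 0.67 on slide 3, while A_54_P2494 was lower by 0.14 and 0.24 (log2 changes of -0.14 and -0.24), and both passed (adjusted P of 7.1e-09 and 8.6e-05 by limma over 112 probes). Of the miR-106b probes, A_54_P1263 was higher by 0.54 and 0.55, and A_54_P1264 by 0.10 and 0.11, which did not pass (adjusted P = 0.114). The second probes of miR-19b and miR-20a, which were present on 6 and 8 arrays and not kept, went the other way from the kept ones, with slide means of 6.34, 5.95 and 5.94 for A_54_P1268 and of 6.23, 6.05 and 6.05 for A_54_P1305. A miRNA's level, the mean over its kept probes, therefore holds opposed slide shifts for miR-92a. No probe of a member passed the threshold for dose when each was tested on its own, and the lowest adjusted P was 0.0987 (limma), for the slope of A_54_P1263. The miR-106b probes differed in their change at 75 mg/kg/day. It was 0.17 ± 0.07 (SE) for A_54_P1263 and 0.01 ± 0.07 for A_54_P1264 (unadjusted P of 0.028 and 0.921 by limma).

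**Figure D5:**
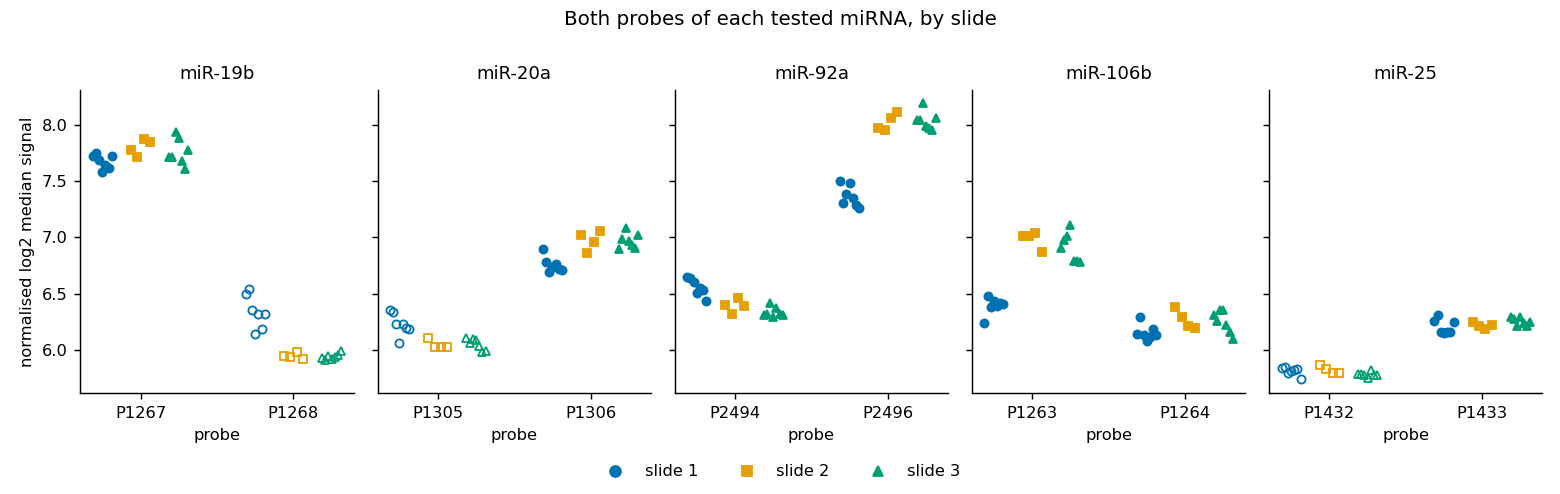
Normalized log2 median signal of both probes of each tested member on 18 arrays, grouped by slide, with filled points for probes kept by the presence filter and open points for those left out. The probes P2494 and P2496 of miR-92a shift in opposite directions between slide 1 and the other slides.

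The rest of the family and its usual company gave little more to compare. The paralogous miR-106a-363 cluster had 4 names on the array besides miR-19b and miR-92a (miR-106a, miR-18b, miR-20b and miR-363), and 0 of them passed the filter, with miR-20b alone present on any array (8 of 18, 6 of them on slide 1). Of the opposite strands of the hairpins, 8 names were on the array and 0 were present on any array. Among the other miRNAs with the miR-92 seed, miR-92b was present on 3 arrays, all of slide 1, and miR-32 and miR-367 on 0.

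A list of 28 miRNAs that MYC is known to lower, such as the let-7 family, had 22 members tested. At 75 mg/kg/day 1 was higher (miR-34a), 1 was lower (let-7c, -0.27 ± 0.05, SE, adjusted P = 0.00533 by limma), beside 5.8% of all 69 miRNAs called in either direction, and the median was -0.09 beside -0.03 over all 69. Among markers of other liver cells, miR-199a-3p, the tested 1 of 5 mesenchymal miRNAs, was lower at 75 mg/kg/day by a log2 change of -0.22 ± 0.05 (SE, adjusted P = 0.00931 by limma), and its part in the members' values was not tested. The tested blood and immune miRNAs (3 of 6) and endothelial miRNA (1 of 2) did not pass at any dose.

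Finally, the members were compared by pattern over the 18 arrays after slide means were removed. The closest pattern to miR-20a was that of miR-92a of the same cluster, with Pearson's r = 0.70 and Spearman's rho = 0.56 over 18 arrays (P = 0.00292 and 0.0269 by permutation within slides, adjusted P = 0.105 and 0.229 over 330 pairs), and r = 0.43 without the 2 arrays farthest from the median of miR-20a. Next to miR-20a stood miR-139-5p (r = 0.63), and next to miR-92a, after miR-20a, let-7g (r = 0.69). miR-19b was closest to miR-126-3p (r = 0.58) and miR-20a (r = 0.57). In the other cluster, miR-106b was closest to miR-28 and miR-29c (r = 0.73 and 0.70) and miR-25 to miR-30a and miR-99a (r = 0.72 and 0.70).

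None of these pairs passed after adjustment, with adjusted P of 0.105 or more by permutation. Over the 10 pairs within the 5 members r lay between -0.12 and 0.70, and for miR-106b with miR-25 of the same cluster it was 0.32. The 1 pair of 330 that passed was a negative one, miR-106b with let-7d (r = -0.74, rho = -0.79, adjusted P = 0.0099 and 0.0165 by permutation, r = -0.68 without the 2 farthest arrays). With quantile normalization that pair had r = -0.57 and an adjusted P of 0.0957 by permutation, and 47 other pairs passed (14.2% of 330). They included all 4 pairs of members within a cluster, miR-106b with miR-25 (r = 0.76, adjusted P = 0.0152), miR-19b with miR-20a (r = 0.72, adjusted P = 0.0205), miR-20a with miR-92a (r = 0.70, adjusted P = 0.0220) and miR-19b with miR-92a (r = 0.67, adjusted P = 0.0281 by permutation), and 0 of the 6 pairs between the clusters. By Spearman's rho, 1 of these 4 passed, miR-19b with miR-20a (adjusted P = 0.0284 by permutation). All values of an array share its RNA and its labeling.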

How the data were processed

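Liver miRNA of 18 mice was measured on 1-color Agilent arrays. The authors labeled small-RNA-enriched total RNA with cyanine 3 and extracted images with Agilent Feature Extraction 10.7.3.1. The values they deposited per spot are linear intensities, with no normalization between arrays; the authors also deposited a table of log2 signals per name, used as an alternative. Depth has no meaning here, and the number of arrays limits the precision.

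Following the study's methods, median signals without background subtraction were log2 transformed, cyclic loess normalized over non-control spots and reduced to the median over a probe's spots. Outlier spots were removed. Probes present (at least 0.5 of spots well above background, in at least 0.8 of the arrays of at least 1 group) were kept, and averaged per name, leaving 112 probes of 69 names. limma 3.58.1 in R 4.3.3 (lmFit, eBayes) took the place of the study's MAANOVA, with dose group and slide as fixed terms and all 18 arrays. Two-sided P-values were adjusted by Benjamini-Hochberg over 69 names (threshold 0.05); the trend is a slope per 25 mg/kg/day. Pattern likeness used 100000 shuffles within slides. The scripts were tested on simulated data.

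Groups came from the labels, with 1 array per animal; pattern neighbors were named by rule, as the 2 with the highest r. The members, lists and rule were chosen with earlier results of these data known. Alternatives covered normalization, background, filter, probe summary, slide and each array left out. let-7d, let-7c, miR-34a and miR-199a-3p were named after their values were seen.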

Additional observations from a re-analysis of the deposited data

How the results depend on the processing

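No paired analysis was possible because the labels carry no replicate numbers and those used here follow only the order of the arrays. The count of members past the threshold stayed at 0 in all 5 comparisons under every alternative (limma) except the total gene signal, with 1 at 75 mg/kg/day (miR-19b) and 2 for the trend (miR-19b and miR-92a), and detected spots as a covariate, with 1 for the trend (miR-106b at 0.05). The number of members tested varied between alternatives, and all 9 were tested without a filter on dim probes. Leaving out each array in turn gave 0 of 5 throughout, and medians between -0.061 and 0.086 at 50 and between -0.034 and 0.070 at 75 mg/kg/day, the highest of each without control 1. Centering array medians moved the median of the members to -0.28, -0.24 and -0.22 at 25, 50 and 75 mg/kg/day, beside -0.23, -0.25 and -0.25 over all 69 miRNAs. The authors' table gave -0.11 at 25 mg/kg/day, over the same names and over all its names. The processed signal gave 0.16 at 50, 0.20 at 75 and 0.15 for 75 versus 25 mg/kg/day, and the total gene signal 0.19, 0.36 and 0.31, with 0.13 for the trend. On the total gene signal the median over all 69 also rose at 75 mg/kg/day, as given above. The other medians over all miRNAs in these settings and in the authors' table are not given here. These medians of the members are therefore not read as changes particular to the clusters. Of 890 member values under alternatives, 99 had the opposite sign to the reported one, of which 1 passed the threshold (the slope of miR-92a on the total gene signal, 0.081). Quantile normalization raised the pattern pairs past the threshold from 1 to 47 of 330. The causes were not tested. miR-106b and miR-25 gave no value when probes had to be present on all arrays. The probe-level tests, within-slide differences and the total gene signal without each array were chosen after seeing the data. Signal near background limits miR-25 most, and 4 of the 9 members did not pass the presence filter and were not tested in the main fit.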
